A study of Mus musculus with 18 samples.

Results

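The genes described here make, break down, bind and sense retinoic acid, and were chosen by name: Cyp26a1, Cyp26b1, Aldh1a2, Rdh10, Dhrs3, Crabp1, Crabp2, Rarb and Rarg. They are 9 of the 18193 genes with a probe set matched to a single gene symbol, and 11 of the 45101 probe sets on the array measured them. The choice was made with earlier results of these data known. Expression was measured in embryoid bodies, floating aggregates of differentiating embryonic stem cells, from 1 mouse line of the 129P2 strain that carries a doxycycline-inducible Flag-tagged Msgn1 (A2lox-Flag-Msgn1). Msgn1, a transcription factor, marks presomitic mesoderm, from which somites form, and the question was what its premature expression changes. Induced embryoid bodies received 1 µg/ml doxycycline on day 2 of differentiation and were collected 12, 24 and 48 h later, and uninduced embryoid bodies of the same line, without doxycycline, were collected at the same times. Each of the 6 groups had 3 arrays, called biological replicates in the labels. No group received doxycycline without the cassette, so effects of the drug and of Msgn1 cannot be told apart, and the stem cells had been grown on mouse embryonic fibroblasts.

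Retinoic acid is made from vitamin A. Rdh10 oxidises retinol to retinal, Aldh1a2 oxidises retinal to retinoic acid, and Dhrs3 reduces retinal back to retinol. Enzymes of the Cyp26 family hydroxylate retinoic acid and so clear it, the Crabp proteins hold it in the cytoplasm, and the nuclear receptors of the Rar family bind DNA together with Rxr partners and switch on targets when retinoic acid is bound. In the mouse embryo Aldh1a2 is a gene of the somites and trunk mesoderm and Cyp26a1 one of the tail end, which keeps retinoic acid low where presomitic mesoderm is formed. Cyp26a1 and Rarb are themselves textbook targets of the receptors.

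Values are array signals on the authors' linear scale, on which the array medians lay between 18.8 and 22.1, and signals of different probe sets cannot be compared with each other. Each change is the group mean of log2(signal + 32) in one group minus that in the other, ± its standard error in the limma fit, and folds are on that same scale, which understates changes of dim probe sets. A probe set was tested if a group mean reached 13.3, the 40th percentile of all values, in at least 1 group, and a change was called at an adjusted p under 0.05. Msgn1 had signals of 44.5 to 76.8 in the 9 induced arrays and 4.69 to 25.2 in the 9 uninduced arrays, but whether its probe set detects the Flag-tagged transcript or the endogenous one alone is not known. Summed signals of 8 presomitic mesoderm markers, Msgn1 among them, at 48 h were 1311 to 1324 in induced arrays and 496 to 595 in uninduced arrays. At that time the sums of 6 stem cell and epiblast markers were 6956 to 8771 in induced and 12472 to 13288 in uninduced arrays.

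Of the 9 genes, 8 passed the filter, with 10 of the 11 probe sets. Of the 8, none was called with induction at 12 h, 1 at 24 h and 6 at 48 h, counting genes with at least 1 called probe set. The backgrounds over all 30727 probe sets tested were 0.534% at 12 h, 1.87% at 24 h and 7.78% at 48 h. In a fit with 1 probe set per gene they were 1.07%, 3.85% and 12.3%. There Rdh10 is represented by a probe set that was not called. At 48 h Cyp26a1, Crabp1, Aldh1a2 and 1 probe set of Rdh10 were higher in induced embryoid bodies (background of higher calls 4.3%, or 975 of 14346 with 1 probe set per gene). Dhrs3 and Crabp2 were lower with induction at that time (background of lower calls 3.48%, or 793 of 14346 with 1 probe set per gene). Aldh1a2 passed the filter only through induced groups, so its call gives these counts no support, and without the filter the count at 48 h was 4, without Aldh1a2 and Rdh10. The median change of the 10 probe sets was 0.02 at 12 h, -0.003 at 24 h and 0.004 at 48 h, beside 0.004, -0.003 and 0.001 for all probe sets tested, so the median did not shift. Induced and uninduced arrays did not overlap in 2 of the 8 genes at 12 h (background 16.3%), 1 at 24 h (background 15.8%) and 6 at 48 h (background 24.3%). These backgrounds of overlap are shares of single probe sets, and none was computed with 1 probe set per gene.

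**Figure D1:**
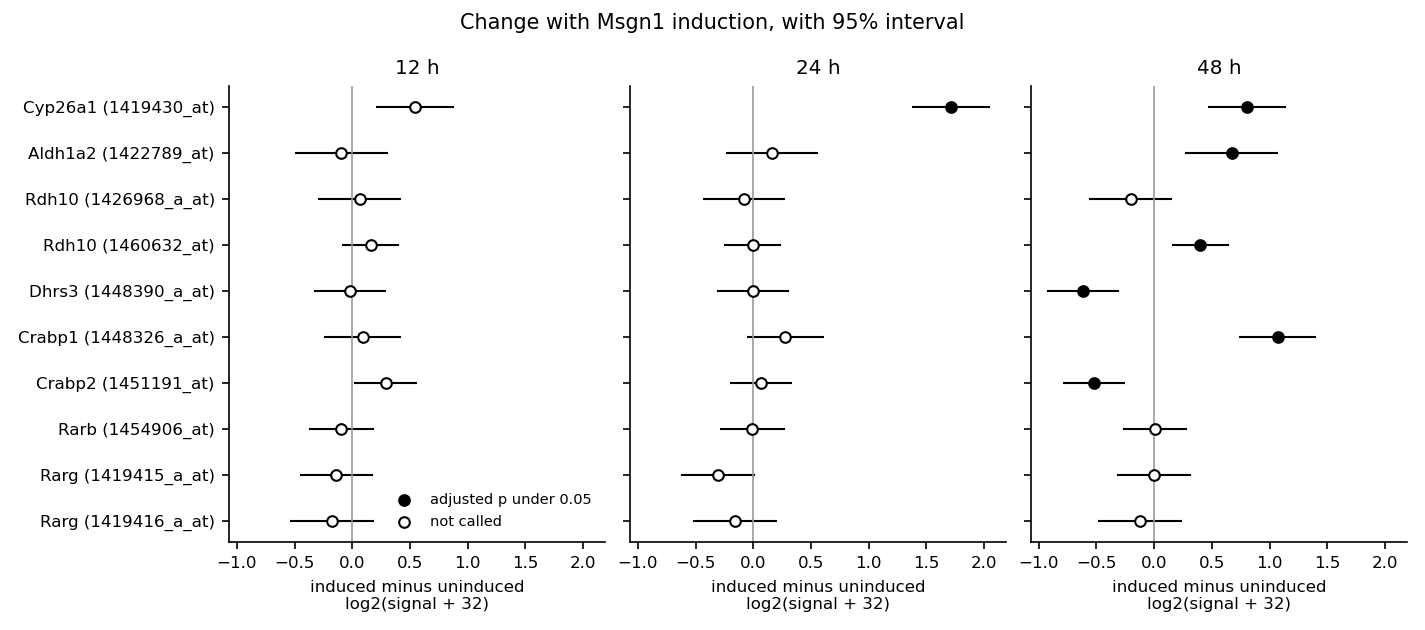
Change with induction of each tested probe set of the retinoic acid genes, as the difference of mean log2(signal + 32) between induced and uninduced embryoid bodies at 12, 24 and 48 h; bars are 95% intervals of the limma fit and filled points passed the test. Cyp26a1 at 24 h has the highest value, 1.71, and Dhrs3 at 48 h the lowest, -0.62.

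Cyp26a1, the main enzyme clearing retinoic acid in the early mouse embryo, was the earliest of the 8 genes to be called and had the largest change on the log2(signal + 32) scale. The ratio of mean signals was larger for the dim Aldh1a2 at 48 h, 13.5 against 4.05 for Cyp26a1 at 24 h. Its promoter is shown beside that of Rarb because both hold a direct repeat spaced by 5 bases, the arrangement of a classical site for the receptors. Cyp26a1 was called with induction and Rarb was not. The stretches are the 250 bases before the annotated start, 5′ to 3′ on the gene's strand, from RefSeq on GRCm38.p6. Capitals mark motifs found by a search of both strands for direct repeats of AGTTCA, of the related motif AGGTCA or of the variants with another first base, GGTTCA and in the same way GGGTCA, spaced by 5 or 2 bases. The search also covered the E-box CAAATG and, as a second form of it, CAGATG, which basic helix-loop-helix factors such as Msgn1 can bind.
Cyp26a1, chr19:37697558-37697807, plus strand: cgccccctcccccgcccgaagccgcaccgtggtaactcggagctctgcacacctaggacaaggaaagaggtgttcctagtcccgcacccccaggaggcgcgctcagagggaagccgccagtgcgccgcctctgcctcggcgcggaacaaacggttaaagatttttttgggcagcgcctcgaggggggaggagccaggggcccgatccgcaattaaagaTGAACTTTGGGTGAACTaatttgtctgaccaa
Rarb, chr14:16575477-16575726, minus strand: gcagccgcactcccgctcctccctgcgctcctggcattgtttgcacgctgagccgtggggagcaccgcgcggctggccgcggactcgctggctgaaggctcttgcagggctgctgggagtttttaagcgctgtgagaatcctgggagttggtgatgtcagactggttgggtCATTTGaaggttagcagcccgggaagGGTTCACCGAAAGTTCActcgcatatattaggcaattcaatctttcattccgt

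In Cyp26a1 the repeat lies 32 to 16 bases before the start and reads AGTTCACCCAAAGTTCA on the opposite strand. In Rarb it lies 53 to 37 bases before the start and reads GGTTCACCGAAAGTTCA, and the 2 repeats are identical at 15 of 17 positions. The shorter run of capitals in Rarb is CAAATG on the opposite strand, and it does not overlap the repeat. A repeat spaced by 5 was present in 32 of 32851 promoter windows of 300 bases in the RefSeq table (0.0974%), one spaced by 2 in 88 (0.268%), CAAATG in 4508 (13.7%) and CAGATG in 5635 (17.2%). The table held windows for 7 of the 9 genes, 10 windows in all, without Rdh10 and Crabp2. CAAATG was also found in Aldh1a2 and in 1 of 2 windows of Rarg, and CAGATG in the other window of Rarg. These matches describe letters in a window, and binding was not measured.

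The Cyp26a1 signals (probe set 1419430_at) at 12 h were 119.6, 75.3 and 82.6 in induced arrays and 33.8, 74.3 and 54.6 in uninduced arrays. The lowest induced array stood barely above the highest uninduced one, and the change of 0.54 ± 0.158 did not pass the test (limma adjusted p = 0.180). At 24 h the signals were 334.5, 359.8 and 470.3 in induced arrays and 112.3, 73.3 and 102.2 in uninduced arrays. Every induced array was now far above every uninduced one, a change of 1.71 ± 0.158 (95% interval 1.39 to 2.04, 3.28-fold, limma adjusted p = 5.69e-07), which ranked 9 among all probe sets from the highest. At 48 h the signals were 1776, 1814 and 1822 in induced arrays and 1008, 1132 and 924 in uninduced arrays. The groups again stood apart, with a change of 0.81 ± 0.158 (1.75-fold, limma adjusted p = 0.00155) and rank 303.

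Cyp26a1 also rose with time without induction, mostly after 24 h. In uninduced embryoid bodies its mean signal was 54.2 ± 20.3 at 12 h, 96.0 ± 20.2 at 24 h and 1021 ± 105 at 48 h (SD, n = 3 each). The step between 24 and 48 h was 3.05 (8.28-fold, limma adjusted p = 1.60e-11) and ranked 6 among all probe sets, and the step between 12 and 24 h was 0.58 (adjusted p = 0.0578). In induced embryoid bodies the means were 92.5 ± 23.7 at 12 h, 388 ± 72.2 at 24 h and 1804 ± 24.8 at 48 h. There both steps passed the test, 1.76 between 12 and 24 h (3.38-fold, limma adjusted p = 7.94e-07, rank 3) and 2.14 between 24 and 48 h (4.41-fold, limma adjusted p = 1.80e-09, rank 26). Sorted by level, the groups ran induced 48 h, uninduced 48 h, induced 24 h, uninduced 24 h, induced 12 h and uninduced 12 h, and only uninduced 24 h and induced 12 h overlapped as neighbours.

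On the log2 scale the estimated effect of induction on Cyp26a1 was highest at 24 h. The effect at 48 h was below that at 24 h by 0.91 (change -0.91 ± 0.223, 95% interval -1.37 to -0.44, limma adjusted p = 0.0389). It was the only call among the 8 genes for this difference (background 1.65%, or 3.07% with 1 probe set per gene). This call was lost in 6 of 11 other settings, with adjusted p between 0.0154 and 0.0869, and in 8 of 18 fits that left out 1 array, with adjusted p between 0.0190 and 0.108. Those 8 were each induced 48 h array, uninduced 48 h replicates 1 and 2, induced 24 h replicates 2 and 3, and uninduced 24 h replicate 2. On the linear scale the mean signals differed by 292 at 24 h and by 783 at 48 h, so the order of the 2 times is opposite there. The effect at 24 h exceeded that at 12 h by 1.17 ± 0.223 without passing the test (limma adjusted p = 0.0613). None of the 8 genes was called for that difference (background 0.0423%, or 0.105% with 1 probe set per gene), and 1 gene had an unadjusted p under 0.05. These 2 differences share the arrays of 24 h.

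**Figure D2:**
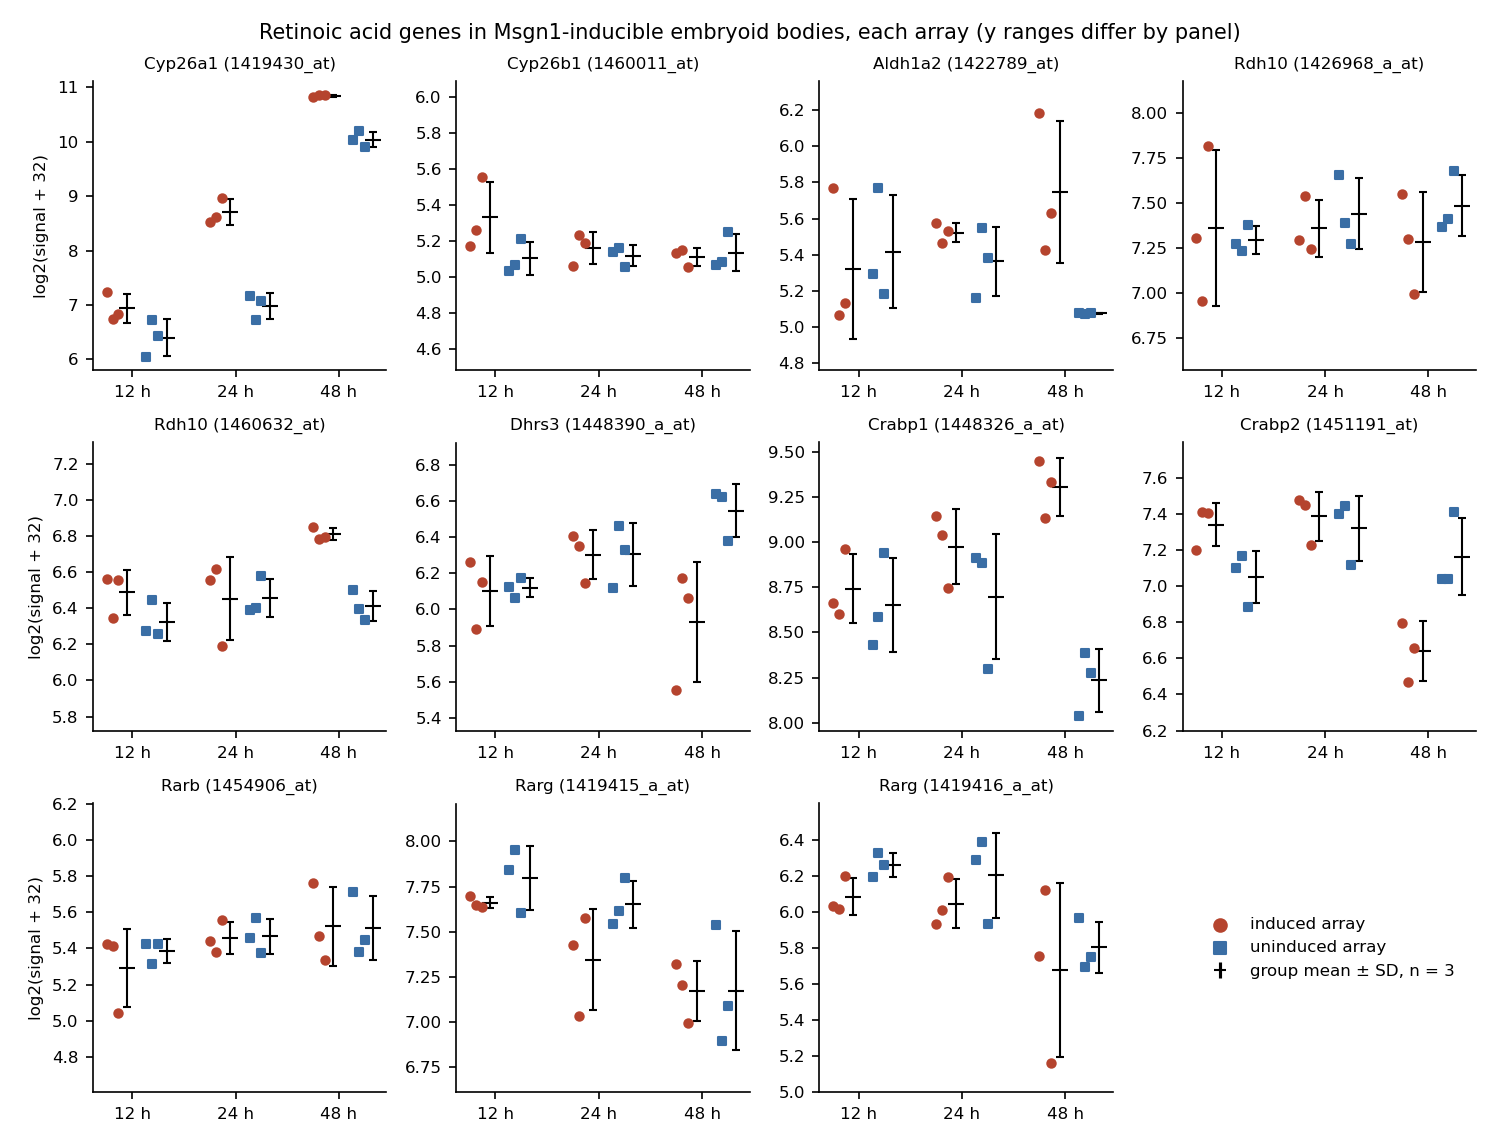
Level of every probe set of the 9 genes as log2(signal + 32) in each array, with induced left of uninduced embryoid bodies at 12, 24 and 48 h; points are arrays, bars are group means ± SD (n = 3), and the y range differs by panel. At 48 h the Cyp26a1 signal behind the points was 1776 to 1822 in induced and 924 to 1132 in uninduced arrays.

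Cyp26b1, the related enzyme known from hindbrain, limb and gonad, had signals of 0.82 to 15.0 over the 18 arrays. Only 1 array reached 13.3, no group mean did, and the gene was not tested.

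Among the genes of synthesis, Aldh1a2, which makes retinoic acid, had signals (1422789_at) of 22.5, 1.45 and 3.05 in induced and 7.22, 22.6 and 4.35 in uninduced arrays at 12 h. At 24 h they were 15.6, 12.2 and 14.2 in induced arrays, and 3.80, 14.7 and 9.61 in uninduced arrays. The groups overlapped at both times, and the changes of -0.09 ± 0.188 and 0.16 ± 0.188 were not called (limma adjusted p = 0.929 and 0.817). At 48 h the signals were 40.8, 10.96 and 17.5 in induced arrays and 1.73, 1.63 and 1.79 in uninduced arrays. All 3 induced arrays were higher, with a change of 0.67 ± 0.188 (95% interval 0.28 to 1.06, limma adjusted p = 0.0284). The gene was dim throughout: 7 of 18 arrays reached 13.3, and it passed the filter through induced 24 h and 48 h alone. Its change at 48 h moved with the offset, between 0.39 and 1.07 with offsets of 64 and 16. It was not called without the filter (adjusted p = 0.0533), without any 1 of the uninduced 48 h arrays or without induced 48 h replicate 1 (adjusted p up to 0.209).

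For Rdh10, the retinol oxidising enzyme, the 2 probe sets disagreed. Probe set 1460632_at had signals of 83.1, 78.4 and 79.1 in induced and 58.5, 52.2 and 48.8 in uninduced arrays at 48 h. The groups were apart, with a change of 0.40 ± 0.115 (1.32-fold, limma adjusted p = 0.0330). Probe set 1426968_a_at had signals of 155, 126 and 95.6 in induced and 133, 138 and 173 in uninduced arrays at 48 h. These overlapped, and the change of -0.20 ± 0.168 (95% interval -0.55 to 0.15) was not called (limma adjusted p = 0.590). At 12 and 24 h the changes of both probe sets lay between -0.08 and 0.16, and none was called. The call of 1460632_at was lost in 3 of 10 other settings, and without any 1 of the induced 48 h arrays or without uninduced 48 h replicate 2 or 3 (adjusted p up to 0.125). In induced embryoid bodies the same probe set rose by 0.36 between 24 and 48 h (limma adjusted p = 0.0336), a call lost in 3 of 9 other settings (quantile normalization, no filter and the arrays of the comparison alone), and without any 1 of the induced 48 h arrays or induced 24 h replicate 3 (adjusted p up to 0.204).

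Dhrs3, which opposes Rdh10 by turning retinal back into retinol, was lower with induction at 48 h. Its signals (1448390_a_at) were 15.0, 40.3 and 34.8 in induced and 67.8, 66.4 and 51.1 in uninduced arrays. The change was -0.62 ± 0.145 (1.53-fold lower, limma adjusted p = 0.00807). The array of 15.0 carried much of it, since without induced 48 h replicate 1 the change was -0.43 and not called (adjusted p = 0.0798). At 12 h the signals were 44.9, 27.3 and 39.0 in induced and 37.7, 34.9 and 40.2 in uninduced arrays, and at 24 h they were 52.8, 49.7 and 38.9 in induced and 37.5, 56.2 and 48.5 in uninduced arrays. Both changes, -0.02 ± 0.145 and -0.002 ± 0.145, were within the spread of the arrays.

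The 2 cytoplasmic binding proteins moved in opposite directions at 48 h. Crabp1 (1448326_a_at) had signals of 666, 529.7 and 613 in induced and 231, 302 and 278 in uninduced arrays. The lowest induced array was well above the highest uninduced one, a change of 1.07 ± 0.156 (95% interval 0.75 to 1.40, 2.10-fold, limma adjusted p = 5.92e-05) that was called in all 11 other settings and all 18 fits without 1 array. At 24 h its signals were 534, 493 and 397 in induced and 449, 440.1 and 283 in uninduced arrays, and at 12 h they were 374, 357 and 466 in induced and 314, 352 and 459 in uninduced arrays. The groups overlapped at both times and the changes of 0.28 ± 0.156 and 0.09 ± 0.156 were not called (limma adjusted p = 0.513 and 0.912). In uninduced embryoid bodies Crabp1 fell by 0.46 between 24 and 48 h (limma adjusted p = 0.0450), with overlapping arrays. That call was lost in 4 of 10 other settings and in 8 fits without 1 array, among them uninduced 24 h replicates 1 and 2 and uninduced 48 h replicates 1 and 3 (adjusted p up to 0.195). The effect of induction at 48 h exceeded that at 24 h by 0.79 ± 0.221, which did not pass the test (limma adjusted p = 0.0788).

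Crabp2 (1451191_at), which also carries retinoic acid to its receptors, had signals of 79.2, 56.5 and 68.7 in induced and 99.5, 99.6 and 138 in uninduced arrays at 48 h. The groups were apart, with a change of -0.52 ± 0.126 (1.44-fold lower, limma adjusted p = 0.00993), and the call was lost without uninduced 48 h replicate 3 or induced 48 h replicate 2 (adjusted p up to 0.0853). At 12 h its signals were 115, 138 and 138 in induced and 105, 112 and 86.2 in uninduced arrays, and at 24 h they were 146, 143 and 118 in induced and 137, 142 and 107 in uninduced arrays. The groups were apart at 12 h too, in the other direction, but that change of 0.29 ± 0.126 did not pass the test (limma adjusted p = 0.467). In induced embryoid bodies Crabp2 fell by 0.75 between 24 and 48 h (1.68-fold, limma adjusted p = 1.74e-04), a call kept in all settings run, and the induced 48 h group was the lowest of the 6 groups and apart from the next.

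The receptors did not pass the test with induction at any time. Rarb (1454906_at) stayed dim, with 0.95 to 22.3 in the 9 induced and 7.72 to 20.5 in the 9 uninduced arrays. At 48 h its signals were 22.3, 12.3 and 8.33 in induced and 20.5, 9.59 and 11.5 in uninduced arrays. Its change there was 0.01 ± 0.130 (95% interval -0.26 to 0.28, limma adjusted p = 0.983), and only 4 of 18 arrays reached 13.3, in which range a change would be compressed by the offset. Rarg, the receptor most expressed in the primitive streak and presomitic region of the mouse, had 2 probe sets. Probe set 1419415_a_at had signals of 140, 99.1 and 159 in induced and 154, 164 and 190.3 in uninduced arrays at 24 h, a change of -0.31 ± 0.149 (95% interval -0.62 to 0.002) that was not called (limma adjusted p = 0.415). At 48 h it had 128, 115 and 95.4 in induced and 154, 87.0 and 104 in uninduced arrays, and at 12 h 176, 168 and 167 in induced and 197, 216 and 162 in uninduced arrays. The groups overlapped at all 3 times. The dimmer probe set 1419416_a_at, at 3.77 to 51.6 over all arrays, gave changes of -0.18, -0.16 and -0.13, none called.

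Over time Rarg was called with 1 probe set, in uninduced embryoid bodies alone. In uninduced embryoid bodies 1419415_a_at fell by 0.48 ± 0.149 between 24 and 48 h (limma adjusted p = 0.0294), and 1419416_a_at by 0.40 (adjusted p = 0.119). The call was lost without the filter, with the arrays of the comparison alone and without replicate 2 or 3 of uninduced 24 h or of uninduced 48 h (adjusted p up to 0.177). In induced embryoid bodies 1419415_a_at changed by -0.17 and 1419416_a_at by -0.37 between 24 and 48 h, neither called (limma adjusted p = 0.495 and 0.154). Between 24 and 48 h 3 of the 8 genes were called in uninduced embryoid bodies (Cyp26a1, Crabp1 and Rarg, background 17.1%) and 3 in induced ones (Cyp26a1, Rdh10 and Crabp2, background 17.9%). Between 12 and 24 h none was called in uninduced (background 2%, 2 genes at an unadjusted p under 0.05) and 1, Cyp26a1, in induced embryoid bodies (background 8.87%). With 1 probe set per gene the backgrounds between 24 and 48 h were 24.4% in uninduced and 25.7% in induced embryoid bodies. Between 12 and 24 h they were 4% in uninduced and 13.8% in induced ones. These comparisons over time share arrays with those of induction.

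In bulk RNA, fewer cells of a type and less RNA per cell cannot be told apart, and markers of several cell types moved with induction at 48 h. All 6 stem cell and epiblast markers fell. Of 8 feeder fibroblast markers Col1a2 and Fbln2 rose, with sums of 816 to 978 in induced and 554 to 681 in uninduced arrays. Of 8 extraembryonic endoderm markers, Gata4 and Gata6 rose, Sox17 and Foxa2 fell, and Ttr and Afp were too dim to test, with sums of 1064 to 1159 in induced and 1620 to 1974 in uninduced arrays. Of 6 neural markers Sox3 fell, and Sox1 and Pou3f2 were too dim to test, with sums of 241 to 344 in induced and 485 to 536 in uninduced arrays. At 24 h, where Cyp26a1 was called, no single stem cell, epiblast or neural marker was called, but their sums were already lower with induction. Those of stem cells and epiblast were 13109 to 14399 in induced and 14649 to 15793 in uninduced arrays. The neural sums were 401 to 487 in induced and 497 to 558 in uninduced arrays. Col1a2, Gata4 and Gata6 were higher at 24 h. So were 4 of the 7 presomitic markers tested, Tbx6, Dll1, Dll3 and Msgn1. Sums of all 8 presomitic markers were 1004 to 1083 in induced and 285 to 359 in uninduced arrays. At 12 h 3 of the 7, Dll1, Dll3 and Msgn1, were already higher, with sums of all 8 of 940 to 994 in induced and 292 to 317 in uninduced arrays. The part of these cell types in the changes of the retinoic acid genes was not tested.

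None of the other retinoid genes tested passed the test with induction. Of 24 other retinoid genes (among them dehydrogenases, carriers, Rara, the Rxr receptors and coactivators), 16 were tested, 5 had no probe set matched to 1 symbol and 3 were too dim. The count in limma's fit was 0 at 12, 24 and 48 h, against 2, 1 and 0 at an unadjusted p under 0.05, and the other settings called at most 1, at 48 h. Their median change was 0.02, 0.03 and 0.08 at the 3 times. Rxrg, a partner of the Rar receptors, had mean signals of 63.98 ± 8.65 in induced arrays and 44.3 ± 3.79 in uninduced arrays at 24 h, a change of 0.33 (limma adjusted p = 0.261). Rdh11, another retinol dehydrogenase, had 733 ± 120.0 in induced arrays and 606 ± 55.2 in uninduced arrays at 48 h, a change of 0.26 (adjusted p = 0.372). Between 24 and 48 h, 5 of the 16 were higher and 1 lower in uninduced embryoid bodies, and 3 higher in induced ones. The backgrounds were 17.1% and 17.9% over all probe sets and 24.4% and 25.7% with 1 probe set per gene. The count of 3 is close to the 17.9% and below the 25.7%.

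Some of the genes known to respond to retinoic acid were called at each time. The list was chosen with earlier results of these data known, so its counts and medians are not independent of the data. It leaves out the members, among them the targets Cyp26a1 and Rarb, which changed by 0.81 and 0.01 at 48 h. Of 20 listed, 14 were tested, with 2 higher at 12 h, 3 higher at 24 h, and 6 higher and 1 lower at 48 h. The backgrounds were 0.534%, 1.87% and 7.78% over all probe sets, and 1.07%, 3.85% and 12.3% in a fit with 1 probe set per gene; the lists, too, count 1 probe set for each gene. Their median change was 0.05 at 12 h, 0.23 at 24 h and 0.27 at 48 h, beside the 0.004, -0.003 and 0.001 of all probe sets. The largest rises at 48 h were in the 3′ genes of the Hoxb cluster, which give cells their position along the body axis, and in Meis2, a partner of Hox proteins. Hoxb2 had 176 ± 29.1 in induced and 21.5 ± 3.67 in uninduced embryoid bodies (change 1.95, limma adjusted p = 6.61e-08). Hoxb3 had 129 ± 11.8 in induced and 21.2 ± 1.82 in uninduced embryoid bodies (change 1.59). Hoxb1 had 144 ± 25.5 in induced and 29.0 ± 4.71 in uninduced embryoid bodies (change 1.52). These genes have other inputs besides retinoic acid, and retinoic acid itself was not measured.

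Meis2 had 247 ± 39.9 in induced and 73.2 ± 11.05 in uninduced embryoid bodies (change 1.40), from a probe set that may also match other transcripts, and 3 of its 4 kept probe sets were called higher. Zfp703 and Nr2f1 made up the 6, with changes of 1.18 and 0.51, and were named after their values were seen. The second kept probe set of Zfp703 changed by -0.18 and was not called. Nr2f1 passed the filter only through induced 48 h, with a mean of 23.8 there and 7.44 in uninduced 48 h arrays, so its own high group decided that it was tested. Without the filter the counts at 48 h were also 6 higher and 1 lower. At 24 h the 3 called were Hoxb3, Hoxb2 and Hoxb1, with changes of 0.88, 0.88 and 0.75. At 12 h they were Hoxb3 (0.58, limma adjusted p = 0.0369) and Nr6a1, an orphan nuclear receptor (0.49, adjusted p = 0.00287). The other kept probe set of Hoxb3 changed by -0.18 there and was not called, and 2 of 4 kept probe sets of Nr6a1 were called. The count of 2 was 1 in 4 of the other settings, without any 1 of the induced 12 h arrays, without uninduced 12 h replicate 1 or 3, and without induced 48 h replicate 3. Nr6a1 was the gene lower at 48 h, with 1230 ± 99.0 in induced and 1520 ± 125 in uninduced embryoid bodies (change -0.30, limma adjusted p = 0.0240). Of its 4 kept probe sets 2 were called lower, and the call was lost without the intensity trend. Among genes not counted as called at 48 h, 1 of 2 kept probe sets of Meis1 was called higher (0.65) and 1 of 2 of Rai1 lower (-0.38). For 6 of the 14 genes the effect of induction differed between 48 and 24 h, with a higher effect at 48 h for 5 of them and a lower one for Nr6a1 (background 1.65% over all probe sets and 3.07% with 1 probe set per gene). That count lay between 2 and 6 in the other settings and in the fits without 1 array. It was 2 or 3 with no filter, with offset 16, and without replicate 1 of any 24 h or 48 h group or induced 48 h replicate 3.

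**Figure D3:**
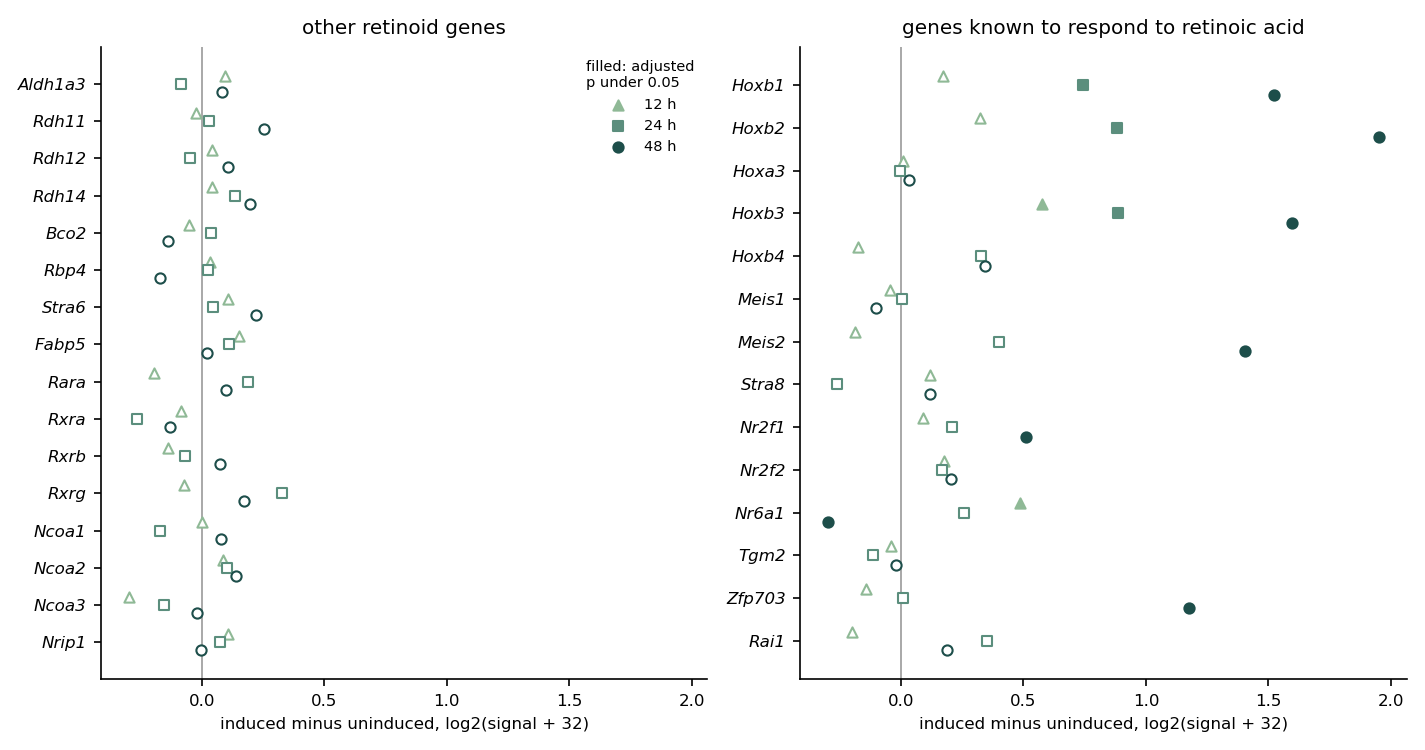
Change with induction, as the difference of mean log2(signal + 32), of every tested gene among the other retinoid genes and the genes known to respond to retinoic acid, at 12, 24 and 48 h; filled points passed the test. No point of the other retinoid genes is filled, and Hoxb2 reaches 1.95 at 48 h.

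The genes whose levels ran most like Cyp26a1 over the 18 arrays were Aplnr (Pearson r = 0.989), a receptor of early mesoderm, Lhx1 (0.988), a transcription factor of axial and lateral mesoderm, and Amot (0.986), a junction-associated protein. These values describe a shared course over the same arrays and 6 groups, with no test. Aplnr had means of 670 in induced arrays and 77.5 in uninduced arrays at 24 h, and 3247 in induced and 1690.3 in uninduced ones at 48 h. Lhx1 had 274 in induced arrays and 78.0 in uninduced arrays at 24 h, and 1006 in induced and 859 in uninduced ones at 48 h. The closest gene to Crabp1 was Glipr2 (0.891), to Dhrs3 Plaat3 (0.885), to Crabp2 Myl12b (0.883), to Aldh1a2 Pttg1ip (0.833) and to Rarb Gmps (0.754). For Rdh10 it was Arhgef17 with 1460632_at (0.864) and Acat1 with 1426968_a_at (0.784). For Rarg it was Ttpa with 1419415_a_at (0.898) and Agap3 with 1419416_a_at (0.861). Each r is the highest over all candidate genes, so a high value by itself says little, also for the dim Aldh1a2 and Rarb.

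**Figure D4:**
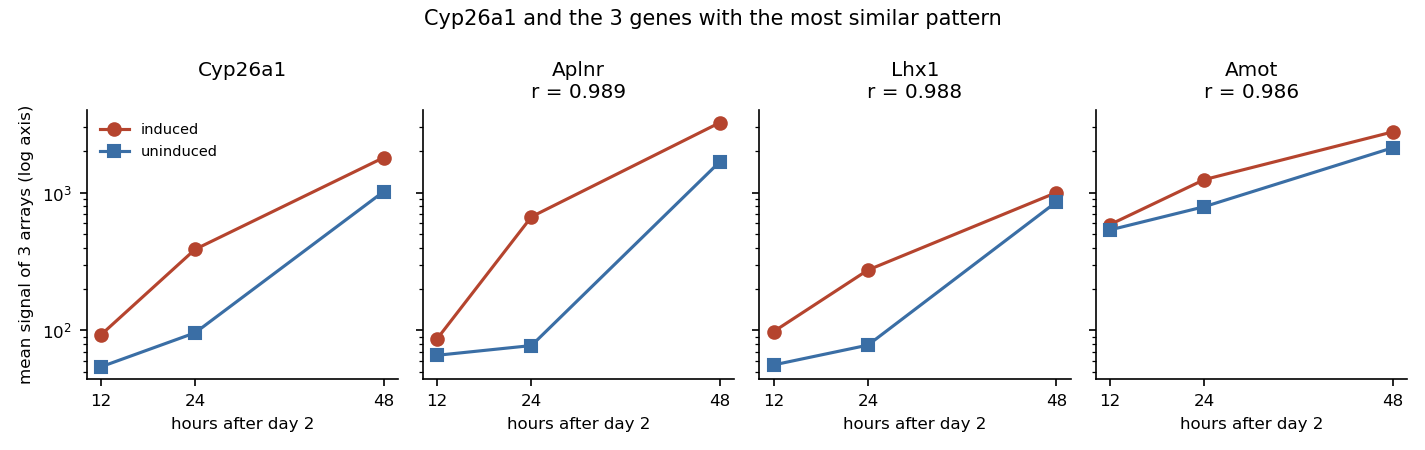
Group mean signals on a log axis of Cyp26a1 and the 3 genes most like it over the 18 arrays, Aplnr, Lhx1 and Amot, in induced and uninduced embryoid bodies at 12, 24 and 48 h. All 4 have their highest mean in induced embryoid bodies at 48 h, 1804 for Cyp26a1.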

How the data were processed

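The 18 samples were hybridised to 1-colour Affymetrix arrays, 3 in each of 6 groups, with groups and replicate numbers taken from the titles. Per the labels' protocols, 100 ng of RNA with an integrity number above 9 was labelled by a 3′ kit. The authors deposited linear signal intensity for 45101 probe sets, made with GCOS per the submitters' processing notes. No source used here names the algorithm or its scaling. The 2% trimmed mean of the deposited intensity was 150 on all arrays, so arrays had been scaled to each other. Replicates correlated at 0.990 to 0.994 and no arrays were identical. What the replicates share beyond the label is not stated, so p-values measure the spread between these arrays. The number of arrays limits the precision.

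Probe sets were named through the platform annotation: 34945 had 1 gene symbol, 932 several and 9160 none, and 64 controls were left out. Array medians of log2(signal + 32) lay within 0.0922, and no normalization was added. Limma 3.58.1 in R 4.3.3 fitted 1 mean per group to the 30727 probe sets whose group mean reached the 40th percentile in at least 1 group, with a trended variance (21.2 degrees of freedom) and 2-sided p-values adjusted by Benjamini-Hochberg over all of them. The 9 contrasts compared induced with uninduced arrays at each time, consecutive times within each condition, and differences of the induction effect. The fit was tested on simulated data. All members are named. Of each list up to 4 called genes with the largest changes are named, or with none called up to 2. In each list the probe set with the highest mean stands for its gene. The 3 genes with the highest Pearson r over the arrays are listed as most alike. The members and lists were chosen with earlier results of these data known.

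Same-numbered arrays had correlated deviations at 24 h (0.185, 0.107 and 0.411). Induced 1 with uninduced 2 (0.182) and induced 2 with uninduced 1 (0.0964) were alike there, so only replicate 3 stood out as a pair. Its ratios of 3′ to 5′ Actb control signal were 2.10 in the induced and 1.95 in the uninduced array, against 1.54 to 1.68 in the other 24 h arrays. No such pattern held at the other times. At 12 h the values of same-numbered arrays were -0.0101, 0.0744 and -0.0847, and at 48 h -0.0835, -0.0233 and 0.13. The alternatives were quantile normalization, no filter or the 60th percentile, offsets of 16 and 64, 1 probe set per gene, variances without or with a robust trend, a fit to the compared arrays only, a replicate block over all arrays or within each time (the fit reported here has no block), and leaving out each array. Sequences are from RefSeq, GRCm38.p6, which may not be the build of the probe set annotation. Figures were drawn with matplotlib 3.10.9.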

Additional observations from a re-analysis of the deposited data

Results flagged for a closer look

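The effect of induction on Cyp26a1 differed between times. It was 1.71 at 24 h and 0.81 at 48 h on the log2(signal + 32) scale, and the difference of -0.91 ± 0.223 passed limma's test (adjusted p = 0.0389). At 24 h the mean signal was 388 in induced arrays, against 96.0 in uninduced ones, and at 48 h it was 1804, against 1021 in uninduced arrays. No other of the 8 genes tested was called for this difference. The call was lost in 6 of 11 other settings and in 8 of 18 fits without 1 array.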

How the results depend on the processing

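No change of a member reversed its direction past the threshold, and 7 of 15 called member values were called in all other settings run and all 18 fits without 1 array. For these 7 the other settings numbered 11 for changes with induction and 10 for changes over time. The count of members called at 12 h (0), at 24 h (1) and in induced embryoid bodies between 12 and 24 h (1) was the same throughout. Without 1 array the count at 48 h lay between 3 and 6; it was 3 without induced 48 h replicate 1 (Crabp1, Crabp2 and Cyp26a1) or without uninduced 48 h replicate 3 (Crabp1, Cyp26a1 and Dhrs3). Without 1 array the count between 24 and 48 h lay between 1 and 3 in uninduced and between 2 and 4 in induced embryoid bodies, and between 12 and 24 h in uninduced ones between 0 and 1. For the difference between 24 and 12 h it lay between 0 and 1, and for that between 48 and 24 h between 0 and 2. In uninduced embryoid bodies between 12 and 24 h, 1 member (Cyp26a1) was called with the filter at the 60th percentile, offset 16 or 1 probe set per gene. Between 24 and 48 h there, 1 member (Cyp26a1) was called with no filter or with the arrays of the comparison alone. The difference between 24 and 12 h had 1 call (Cyp26a1) with offset 64 or 1 probe set per gene. The difference between 48 and 24 h had 0 calls with quantile normalization, no filter, offset 64, no trend or the replicate block. With the replicate block within time, 5 members were called at 48 h, without Rdh10, and the call for the difference between 48 and 24 h was lost for Cyp26a1 and gained for Crabp1. The causes of these moves were not tested. Cyp26b1, Aldh1a2 and Rarb lie near or under the filter, where the offset compresses changes.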
